A study of Vitis vinifera with 12 samples.

Results

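The binding events of CARPO and of NAC33 on grapevine (Vitis vinifera) leaf DNA were compared in the libraries whose titles carry the number 1000. Members are all events of both deposited lists, 15468 of the 44889 events in the 7 lists of the series, and no event was left out. CARPO had 9170 events and NAC33 had 6298, and each list came from 1 library. The assay was DNA affinity purification sequencing (DAP-seq), in which a tagged transcription factor pulls fragments out of a library of protein-free genomic DNA and the retained fragments are sequenced. Both factors carried a HALO tag and were translated outside cells, in rabbit reticulocyte lysate. The DNA was from young leaf of cultivar Syrah, pooled from fruiting cuttings, so chromatin and other plant proteins were absent. The number 1000 has no unit in the labels, so the lists are called "labelled 1000" and the others "labelled 500". The other lists are CARPO and NAC33 labelled 500 on leaf DNA, from 2 libraries each, CARPO and NAC33 labelled 500 on berry DNA, and NAC03 labelled 500 on leaf DNA, from 1 library each. The HALO-GST control libraries, which carry a tagged protein that is not a NAC factor, were not analysed here, and which control the event caller was given is not stated in the sources used here.

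NAC factors are a plant-specific family that share an N-terminal DNA-binding domain, bind DNA as dimers, and differ most in the rest of the protein. Many act in senescence, maturation and fruit ripening. CARPO, also named NAC60 (Vitvi08g01843), is the factor that the series title links to organ maturation and ripening, and NAC33 (Vitvi19g01484) has been described in grapevine as a regulator of the passage from vegetative growth to maturity. The comparison addresses how far both proteins select the same places in the same naked DNA. No genome of the coordinates' build was used here, so events are named by their deposited positions and not by sequence or gene.

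An event is a single position with a deposited 201 bp interval around it. Its strength is the authors' value, and it ranks events within 1 list and is not comparable between lists. In the CARPO list the median strength was 26 and the highest was 13132, and in the NAC33 list the median was 21 and the highest 11632. The strong part of the CARPO list was broader than that of NAC33. The strength exceeded by 10% of events was 3.85 times the median in the CARPO list and 2 times the median in the NAC33 list. A −log10 q-value of at least 4 was reached by 56.2% of the CARPO events and by 29.1% of the NAC33 events. The lists hold no read totals, so the depth behind these values is unknown, and with 1 list for each factor no difference between the factors has a replicate check or a test.

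Most places were listed for 1 of the factors and not for the other. A partner is an event of the other factor at most 100 bp away. CARPO partners were found for 1210 of the 6298 NAC33 events (19.2%, exact Clopper-Pearson 95% interval 18.2% to 20.2%). Of the 9170 CARPO events, 1256 had a NAC33 partner (13.7%, interval 13.0% to 14.4%). Matched one to one, nearest first, these made 1195 pairs, and 5088 NAC33 events and 7914 CARPO events stood without a partner. The intervals treat events as independent and cover counting error only. The limit of 100 bp did not fall in a crowded range of distances. There were 8 NAC33 events with the nearest CARPO event at 91 to 100 bp and 16 with it at 101 to 110 bp.

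A partner was more frequent among strong events in both lists. Each list was divided into 5 classes of equal size by strength. In the strongest NAC33 class 417 of 1260 events had a CARPO partner (33.1%, interval 30.5% to 35.8%), and in the weakest class 137 of 1259 did (10.9%, interval 9.21% to 12.7%). In the strongest CARPO class 485 of 1834 events had a NAC33 partner (26.4%, interval 24.4% to 28.5%), and in the weakest class 141 of 1834 did (7.69%). The shares over whole lists, 19.2% and 13.7%, fell between the values of the second and the third class in both lists.

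**Figure D1:**
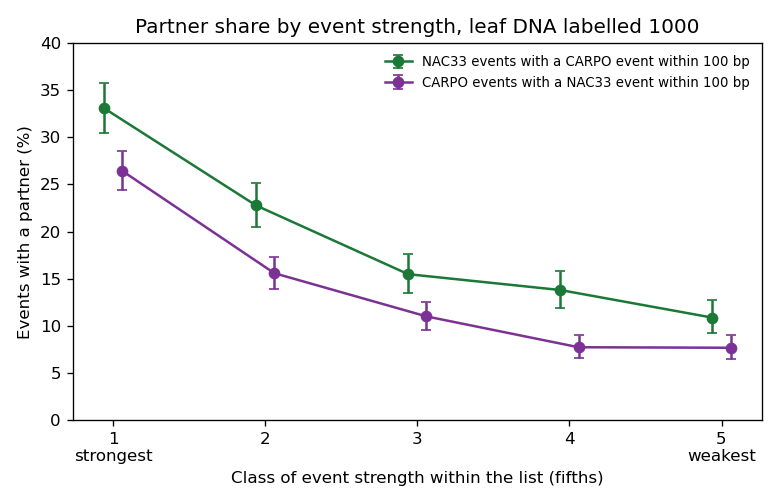
Share of events with a partner of the other factor within 100 bp (%, vertical axis) in 5 classes of event strength within each list (horizontal axis, strongest at the left), for the NAC33 list (green) and the CARPO list (purple). Points are shares of 1 list, bars are exact 95% intervals for counting error, and the share falls from 33.1% to 10.9% for NAC33 and from 26.4% to 7.69% for CARPO.

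Even at the top of the lists a large part of the events had no partner in the list of the other factor. A missing partner is absence from 1 list of unknown depth. It does not show that the place is bound by 1 factor only. Of the strongest 100 NAC33 events, 45 had a partner anywhere in the CARPO list (interval 35.0% to 55.3%), and of the strongest 100 CARPO events, 52 had one anywhere in the NAC33 list (interval 41.8% to 62.1%). When both lists were reduced to their strongest 100, 20 NAC33 events had a partner. Where a strong event of one factor had a partner, that partner was therefore often outside the strongest 100 of the other. The sequence named chr00, which is no numbered chromosome, held 37 of the strongest 100 NAC33 events and 12 of the strongest 100 CARPO events. On chr00, 10 of those 37 and 3 of those 12 had a partner. On the 19 numbered chromosomes the top events of both lists had nearly the same partner share, 35 of 63 for NAC33 (55.6%) and 49 of 88 for CARPO (55.7%).

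The place with the best joint rank lay on chr00, where the NAC33 event at 7155537 had a strength of 1392.3 (rank 5) and the CARPO event at 7155533 a strength of 5631 (rank 4). This place ranked 4 in both other CARPO lists and 5 in the NAC03 list, and neither other NAC33 list had an event there. The second lay on chromosome 9, with NAC33 at 17381111 (strength 982, rank 8) and CARPO at 17381105 (strength 5943, rank 3). It also had events in both other CARPO lists and in NAC03 and none in the other NAC33 lists. On chromosome 12, NAC33 at 7213727 (strength 1018, rank 6) and CARPO at 7213761 (strength 2332.5, rank 11) stood 34 bp apart. A further pair of the 10 best joint ranks lay close by, with NAC33 at 7213878 (rank 30) and CARPO at 7213906 (rank 36), so this short stretch held 2 pairs of strong events of both factors.

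Other pairs of high joint rank were called at the same base for both factors. On chromosome 3, NAC33 had its second strongest event at 1949735 (strength 2338), and CARPO had an event at the same base (strength 594.2, rank 66). Every other list except NAC33 on berry DNA held an event within 100 bp of it, at rank 2 in NAC33 labelled 500 on leaf DNA, 20 in CARPO labelled 500 on leaf DNA, 6 in CARPO on berry DNA and 11 in NAC03. On chromosome 1, both factors were called at 12468912, with a strength of 751.6 for NAC33 (rank 13) and 778.6 for CARPO (rank 41), a place that was the strongest of the NAC03 list. On chromosome 2, both factors were called at 11552451, with a strength of 1503.9 for NAC33 (rank 4) and 1824 for CARPO (rank 16). The chromosome 2 place differed from the other 9 best pairs in that none of the 5 other lists had an event within 100 bp.

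The remaining 3 of the 10 best pairs lay on chromosome 11, on chr00 and on chromosome 17. The chromosome 11 pair stood at 8240313 for NAC33 (rank 15) and 8240310 for CARPO (rank 6). On chr00 the pair stood at 10871245 for NAC33 (rank 23) and 10871248 for CARPO (rank 10), and it was the one of the 10 that had an event in all 5 other lists. On chromosome 17 NAC33 was ahead, with rank 7 at 6121488 against rank 54 at 6121492 for CARPO.

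The 5 strongest CARPO events without a NAC33 partner were between 12911 and 92466 bp from the nearest NAC33 event, against a median of 16219 bp over all CARPO events. The strongest CARPO event of all, on chromosome 11 at 19741324 (strength 13132), had its nearest NAC33 event 92466 bp away. The second, on chromosome 9 at 20833335 (strength 10332), had it 50534 bp away, and a further strong CARPO event of the same place, at 20833456 (strength 3867, rank 5), likewise had no NAC33 partner. Then followed chromosome 5 at 11512462 (strength 3057, rank 9, nearest NAC33 event at 21400 bp) and chromosome 13 at 23955512 (strength 2020, rank 14, nearest at 12911 bp). All 5 recurred in both other CARPO lists and in the NAC03 list, and none had an event of either other NAC33 list within 100 bp. At the chromosome 11 place the ranks were 1 and 2 and 2 in the CARPO lists (labelled 1000, labelled 500 on leaf and on berry DNA) and 3 in NAC03.

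The strongest NAC33 events without a CARPO partner were more mixed. The strongest event of the NAC33 list, on chromosome 13 at 12023107 (strength 11632, 4.98 times that of the next), was 18056 bp from the nearest CARPO event labelled 1000. It was the strongest event of the other NAC33 lists too, and it ranked 2 in NAC03 and 5 in CARPO labelled 500 on leaf DNA. It had no event in the CARPO berry list, so a CARPO event was listed there in 1 of the 3 CARPO lists. The next, on chromosome 13 at 3991374 (strength 2261.7, rank 3), had no event within 100 bp in any other list. The event on chromosome 13 at 1009853 (strength 952, rank 9) ranked 35 in NAC03 and 5 in the leaf list of NAC33 labelled 500. The event on chromosome 8 at 3571531 (strength 789.7, rank 11) had a match in the NAC03 list alone, at rank 16, and its nearest CARPO event labelled 1000 was 672 bp away. The event on chr00 at 13683966 (strength 769.4, rank 12) had no match in any other list.

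Partner events piled up at the same base. Of the 1195 pairs, 310 (25.9%) had both factors at distance 0, and the median distance was 11 bp. At each distance from 1 to 25 bp, counted over both sides, there were between 7 and 37 pairs, and from 51 to 100 bp there were between 0 and 8. The CARPO position lay at the higher coordinate in 440 pairs and at the lower in 445, a nearly even split on the reference strand. The strand of the bound sequence is not in the lists, so the split cannot show whether 1 factor was displaced relative to that sequence.

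**Figure D2:**
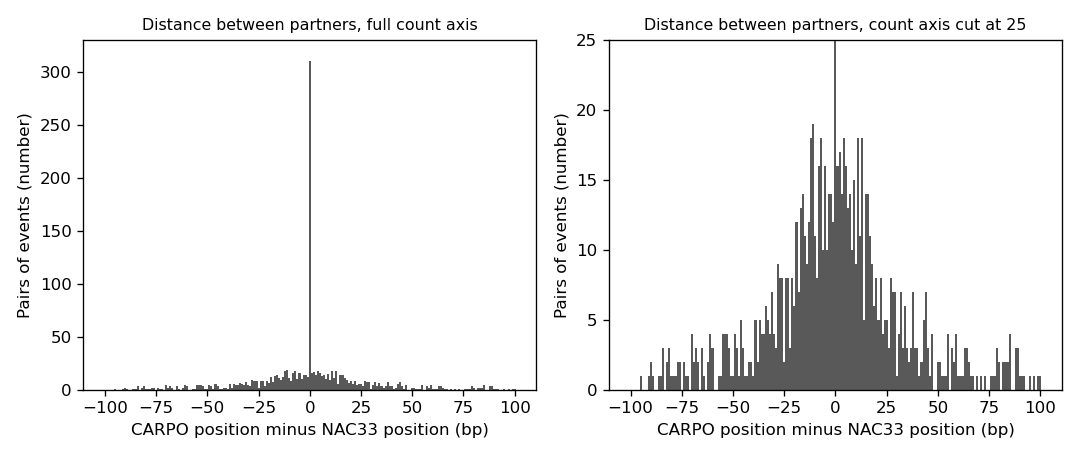
Number of CARPO and NAC33 partner pairs (vertical axis) by CARPO position minus NAC33 position in bp (horizontal axis), for the 1195 pairs labelled 1000. The left panel has the full count axis and shows the 310 pairs at 0 bp, and the right panel shows the same bars with the count axis cut at 25, where pairs spread nearly evenly over both sides.

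Pairs at 0 bp were not the strongest ones. Their median rank was 32.4% of the NAC33 list and 33.9% of the CARPO list, where 0% stands for the strongest event. Pairs 1 to 25 bp apart had a median rank of 29.7% in NAC33 and 23.1% in CARPO. The 133 pairs 51 to 100 bp apart were weaker, with 46.9% and 37.4%. The ranks of both factors went together most among the 310 pairs at 0 bp, where Spearman's rho over pairs was 0.45. It was 0.33 at 1 to 25 bp (562 pairs), 0.20 at 26 to 50 bp (190 pairs) and 0.21 at 51 to 100 bp (133 pairs). These correlations are across events of the same 2 libraries, which are no replicates, and are given as descriptions.

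Beyond 100 bp the density of pairs fell off with distance. Every pair of a CARPO and a NAC33 event was counted, with several pairs allowed for an event. Density is the number of pairs for each bp of separation on 1 side, averaged over both sides. It was 0.146 at 50001 to 100000 bp. At 1 to 10 bp the density was 92.9 times that level, at 51 to 100 bp 12.9 times, at 101 to 200 bp 5.38 times and at 201 to 500 bp 2.41 times. At 1001 to 5000 bp it was 1.28 times, and at 10001 to 50000 bp 1.05 times. The median distance from a NAC33 event to the nearest CARPO event was 10417.5 bp, and from a CARPO event to the nearest NAC33 event it was 16219 bp.

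**Figure D3:**
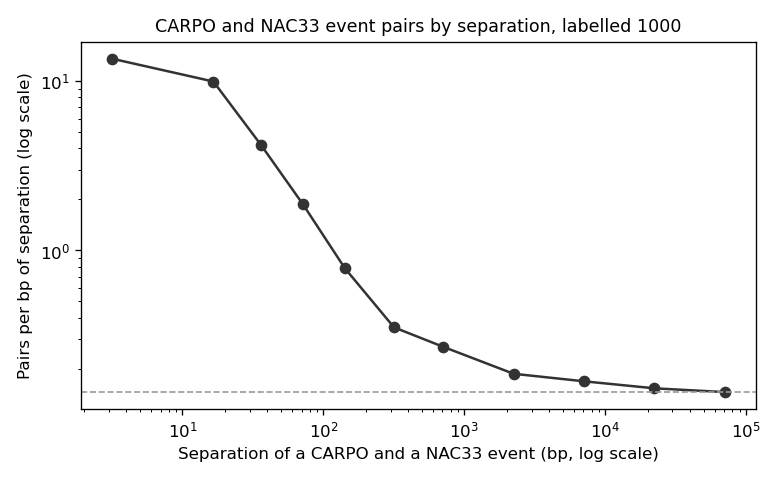
Pairs of a CARPO and a NAC33 event per bp of separation, averaged over both sides (vertical axis, log scale), against their separation in bp (horizontal axis, log scale), labelled 1000. Points are distance ranges drawn at the geometric middle of each range, the 310 pairs at 0 bp are not drawn, and the dashed line is the density at 50001 to 100000 bp, which the points approach beyond 1000 bp.

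Among partner pairs the strength ranks of the factors were only loosely linked. Spearman's rho over the 1195 pairs was 0.34, and it was 0.19 over the 660 pairs with neither event among the strongest 1000 of its list. For the pair counts that follow, the strongest and weakest class were set by relative rank, with tied events sharing their mean rank. Tied events at a class limit can therefore fall otherwise than in the classes of equal size. Both events were in the strongest class of their list in 218 pairs (18.2%), and both were in the weakest class in 29 pairs (2.43%). In 22 pairs a NAC33 event of the strongest class met a CARPO event of the weakest class, and in 25 pairs it was the reverse. The CARPO event had the better relative rank in 630 pairs and the NAC33 event in 565.

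**Figure D4:**
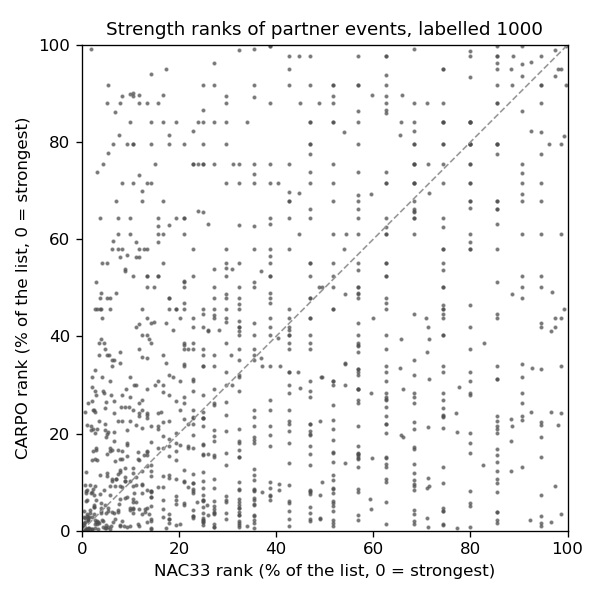
Relative strength rank of the CARPO event (vertical axis, % of the CARPO list, 0 = strongest) against that of its NAC33 partner (horizontal axis, % of the NAC33 list) for 1195 pairs, 1 point for each pair, with the line of equal ranks dashed. Points fill the whole square and are densest at the lower left, where both events are strong. In 218 pairs both were in the strongest class by relative rank, and columns and rows of points come from tied strengths.

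The pairs with the widest gap in rank show both directions. On chromosome 6, NAC33 ranked 119 at 20089609 (strength 97), while CARPO ranked 9084 of 9170 at 20089582 (strength 11.4). In the leaf lists labelled 500 this place ranked 360 for NAC33 and 14500 for CARPO, so the order of the factors was the same there. Next came chromosome 6 at 3799733 (NAC33 rank 346, CARPO rank 8411.5, the mean over ties) and chromosome 12 at 24027302 (NAC33 rank 321.5, CARPO rank 8074). On the CARPO side, chromosome 18 had CARPO at 28069721 (strength 213, rank 315) and NAC33 at 28069754 (strength 11, rank 6215). Then came chromosome 14 (CARPO at 4302977 with rank 156.5, NAC33 at 4303008 with rank 6082) and chromosome 17 (CARPO at 14314116 with rank 88, NAC33 at 14314113 with rank 5949.5). All 3 places on the CARPO side recurred in both other CARPO lists and in NAC03, and in neither other NAC33 list.

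The lists labelled 500 on leaf DNA come from other libraries and were ranked in the same way. They differ from those labelled 1000 in label, number of libraries and length, which cannot be told apart here. Of the 1195 pairs, 577 (48.3%) had a partner of both factors labelled 500, 518 (43.3%) had the CARPO event but not the NAC33 event, 25 had the NAC33 event but not the CARPO event, and 75 had neither. Over the 577 pairs, Spearman's rho between labels 1000 and 500 was 0.83 for CARPO and 0.65 for NAC33. Between factors it was 0.33 within label 1000 and 0.41 within label 500, and 0.40 and 0.22 across labels. Ranks thus went together more within a factor than between factors over these pairs, which are those called in all 4 lists.

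The pairs that ranked higher for one factor at 1000 were then followed at 500. This was possible only for the 577 pairs with a partner of both factors labelled 500, so pairs that lost either event at 500 are left out. Among the 577 there were 75 pairs in which CARPO led by over 25 percentage points of rank at 1000. Their median CARPO lead was 36.3 points at 1000 and 34.1 points at 500. In the 378 pairs within 25 points at 1000, the median CARPO lead at 500 was 9.16 points, in a CARPO list that was 2.52 times as long as that of NAC33. In the 124 pairs in which NAC33 led by over 25 points at 1000, the NAC33-minus-CARPO rank difference, which is negative where NAC33 leads, had a median of -44.2 points at 1000 and -8.36 points at 500 (25% and 75% quantiles -21.3 and 5.01). Pairs were chosen here by their difference at 1000, so the values at 1000 are a description. Those at 500 come from other libraries under another label.

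Events found for both factors at 1000 recurred more often in the other lists of their own factor and in the NAC03 list than events found for 1 factor. In the lists of the partner factor the order follows from how the events were divided, so those values are descriptions. Of all NAC33 events labelled 1000, 2332 (37.0%) had an event of NAC33 labelled 500 on leaf DNA within 100 bp. The share was 50.8% (interval 48.0% to 53.7%) for NAC33 events with a CARPO partner and 33.7% (interval 32.4% to 35.1%) for those without. Of all CARPO events, 6964 (75.9%) recurred in CARPO labelled 500 on leaf DNA, 92.0% (interval 90.4% to 93.5%) of those with a NAC33 partner and 73.4% (interval 72.4% to 74.4%) of those without. On berry DNA, 415 NAC33 events (6.59%) recurred in the NAC33 list, 11.5% with and 5.42% without a partner. In the CARPO berry list 3046 CARPO events (33.2%) recurred, 60.3% with and 28.9% without a partner.

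**Figure D5:**
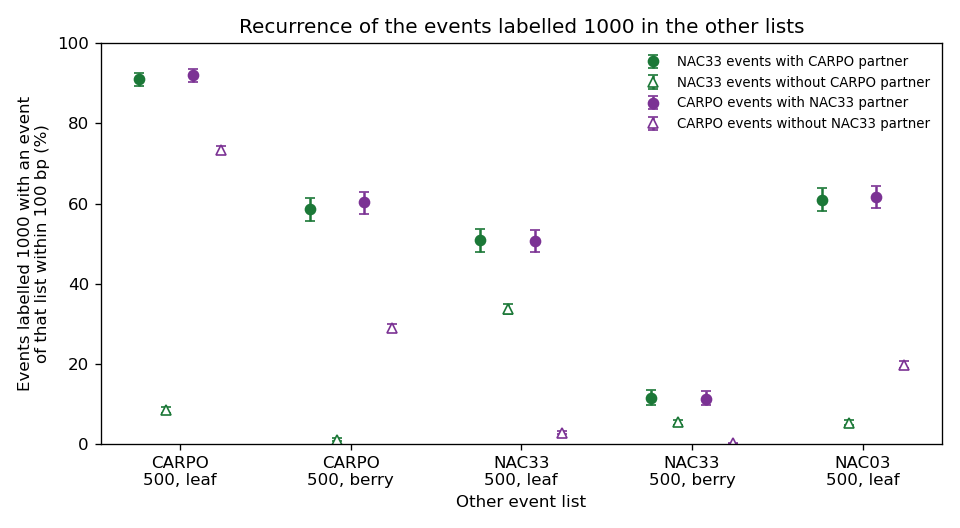
Share of events labelled 1000 that had an event of another list within 100 bp (%, vertical axis) for each of the 5 other lists (horizontal axis), for NAC33 events (green) and CARPO events (purple) with a partner of the other factor at 1000 (filled circles) and without one (open triangles). Bars are exact 95% intervals for counting error, and circles stand above triangles of the same colour, an order that the division itself favours in the CARPO lists for NAC33 events and in the NAC33 lists for CARPO events.

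The stronger events of both lists had partners and recurred more, so the comparison was also made within strength classes. In the strongest NAC33 class, 78.4% of events with a partner and 68.3% of those without recurred in NAC33 labelled 500 on leaf DNA. In the weakest class the values were 13.1% and 11.4%, with overlapping intervals. From stronger to weaker, the NAC33 classes between had 53.7% and 45.9%, 37.4% and 32.7%, and 24.7% and 20.1%. The intervals with and without a partner overlapped in each of these classes too, so they stood apart in the strongest NAC33 class only. In the strongest CARPO class 99.2% and 97.4% recurred in CARPO labelled 500 on leaf DNA, and in the weakest class 58.2% and 43.6%. Between these, 87.3% of CARPO events with a partner and 63.1% of those without recurred in the fourth class. In the third class 192 of 202 with a partner and 1278 of 1632 without did. For NAC33 the gap within each class was smaller than over the whole list. For CARPO it was narrow in the strongest class, where nearly all events recurred, and in the fourth class it was wider than over the whole list.

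The list of NAC03, the remaining NAC factor of the series, was set beside both. Of all NAC33 events labelled 1000, 16.0% had a NAC03 event within 100 bp, and of all CARPO events 25.6% did. Among NAC33 events the share was 61.0% (interval 58.2% to 63.8%) with a CARPO partner and 5.35% (272 of 5088) without. Among CARPO events it was 61.7% (interval 59.0% to 64.4%) with a NAC33 partner and 19.9% (interval 19.0% to 20.8%) without. In the strongest NAC33 class 76.7% of events with a CARPO partner and 13.0% of those without had a NAC03 event, so here the gap stayed wide within a strength class. In the strongest CARPO class the values were 80.8% with a NAC33 partner and 45.4% without.

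A missing partner at 1000 was in part made good by other lists of the same factor. Of the NAC33 events labelled 1000, 24.3% had a match in the longer leaf list of CARPO labelled 500, and 12.2% had one in the CARPO berry list. The CARPO leaf list labelled 500 matched 1102 of the 1210 NAC33 events with a CARPO partner at 1000 (91.1%) and 431 of the 5088 without one (8.47%). Over all 3 CARPO lists, a match was found for 1662 NAC33 events (26.4%). Of the CARPO events labelled 1000, 9.41% had a match in the leaf list of NAC33 labelled 500 and 1.74% had one in its berry list. Among the 7914 CARPO events without a NAC33 partner at 1000, these shares were 2.87% and 0.215%. Over all 3 NAC33 lists, 1494 CARPO events (16.3%) had a NAC33 event within 100 bp. A majority of the events in both lists had no event of the other factor in any list.

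Events that recurred in every list of their factor were less often without the other factor than the list as a whole. There were 308 NAC33 events labelled 1000 with an event in both other NAC33 lists, and 151 of them (49.0%, interval 43.3% to 54.8%) had no event in any CARPO list, against 73.6% of all NAC33 events. Of those 151, 13 (8.61%) had a NAC03 event, against 5.35% of the NAC33 events without a CARPO partner at 1000. The share over all NAC33 events, 16.0%, includes those with a CARPO partner. There were 2920 CARPO events with an event in both other CARPO lists, and 2050 of them (70.2%, interval 68.5% to 71.9%) had no event in any NAC33 list, against 83.7% of all CARPO events. Of those 2050, 862 (42.0%, interval 39.9% to 44.2%) had a NAC03 event, against 19.9% of the CARPO events without a NAC33 partner at 1000. Over all CARPO events, with and without a partner, it was 25.6%. These shares were not matched for strength. Among events of the strongest class without a partner at 1000, 13.0% of NAC33 and 45.4% of CARPO events had a NAC03 event. The NAC33 berry list is short, with 731 events, and limits the first count.

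Other events were seen under label 1000 alone. Of the NAC33 events, 3134 (49.8%) had no event of the 5 other lists within 100 bp, and of the CARPO events 2012 (21.9%) had none. Among the strongest 100 this held for 18 NAC33 and 3 CARPO events. Of those 18 NAC33 events, 17 also had no CARPO partner at 1000, and the remaining one was the chromosome 2 place at 11552451. There were 57 pairs of both factors with no event in any other list. Their median rank was 62.7% in NAC33 and 84.1% in CARPO, against 30.3% and 26.6% for the other 1138 pairs, and 24 of the 57 (42.1%) stood at 0 bp, against 25.1% of the others. The control libraries, in which places recovered without a NAC factor would show, were not analysed here.

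CARPO events outnumbered NAC33 events on all 19 numbered chromosomes. The ratio of CARPO to NAC33 events ran from 1.26 on chromosome 17 to 1.73 on chromosome 9, with a median of 1.47, and it was 1.19 on chr00. Chromosome 8 was the densest for both, with 27.5 CARPO and 18.7 NAC33 events per Mb, taking the highest event end in any list as the length. The NAC33 events with a CARPO partner ranged from 13.1% on chromosome 12 to 24.9% on chromosome 18. CARPO events with a NAC33 partner ranged from 8.15% on chromosome 9 to 15.9% on chromosome 11. Chromosome 9 had the fewest NAC33 events per Mb of the numbered chromosomes, 8.97.

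Over whole lists, which differ in length, the pairs of lists from the other libraries gave similar shares of NAC33 events with a CARPO partner. The share was 19.2% at 1000, 21.1% (interval 20.1% to 22.2%) at 500 on leaf DNA and 20.4% (interval 17.5% to 23.5%) on berry DNA. The share of CARPO events with a NAC33 partner was 13.7%, 8.74% and 3.99% in the same order, in lists where CARPO had 1.46, 2.52 and 5.14 times as many events as NAC33. With every list reduced to its strongest 731 events, the NAC33 shares were 15.0% (interval 12.5% to 17.8%) at 1000, 14.9% (interval 12.4% to 17.7%) at 500 on leaf DNA and 10.9% (interval 8.77% to 13.4%) on berry DNA. With the leaf lists reduced to 5870 events, they were 16.1% (interval 15.2% to 17.0%) at 1000 (944 events) and 13.7% (interval 12.9% to 14.7%) at 500 (807 events). The NAC33 shares were thus less alike at equal length, except between the leaf lists at 731 events. The pile at 0 bp was present in all, with 25.9%, 29.5% and 27.4% of the pairs. No difference between these pairs of lists was tested, because each is 1 list against 1 list, and the leaf lists labelled 500 differ in the number of libraries as well as in the label.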

How the data were processed

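DAP-seq libraries of CARPO and NAC33 labelled 1000 on leaf DNA were compared, and the 5 other event lists served as context. Per the submitters' processing notes, fastp 0.21.0 and Bowtie2 2.0 were used, with no role given; GEM appears in the naming of the deposited lists alone, and the genome build and caller settings are not given in the sources used here. The deposited lists have 10 columns, no header and decimal commas. Column 5 is a deposited score that rescales column 7. Column 7 was taken as event strength, column 8 as −log10 p-value and column 9 as −log10 q-value; these meanings were inferred from the deposited values. Position is column 2 plus column 10 plus 1. Partners were nearest events within 100 bp on the same sequence. Shares have exact Clopper-Pearson 95% intervals. Depth is unknown. No test was run, because each condition has 1 list. The partner search was checked on simulated lists. Python 3.11.15, numpy 2.4.6, pandas 2.3.3 and scipy 1.17.1 were used.

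The events described and the rules were chosen with earlier results of these data known. Named are the 5 strongest events of each list, the 10 pairs of best mean relative rank, the 5 strongest events of each list without a partner, and in each direction the 3 pairs of widest rank difference. The windows named were the extremes of the counts. Alternatives were other partner distances, interval overlap, reduced or merged lists, a −log10 q-value of at least 4, one-to-one matching, ranking by p-value, and the numbered chromosomes only. As the build of the positions is not stated, no gene table was used here.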

Additional observations from a re-analysis of the deposited data

How the results depend on the processing

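The share of NAC33 events with a CARPO partner (19.2%) was 13.8%, 16.9% and 21.0% at partner distances of 25, 50 and 250 bp, 20.6% with any overlap of the intervals, 15.9% with lists of equal length, 15.2% with the strongest 1000 events of each list, 26.0% for events reaching a −log10 q of 4 and 18.2% with events merged within 500 bp. The share of CARPO events with a NAC33 partner (13.7%) was 9.59%, 11.8% and 15.5% at the same distances, 15.1% with any overlap, 16.4% with lists of equal length, 15.6% with the strongest 1000 events and 9.53% for events reaching a −log10 q of 4. With lists of equal length the CARPO share was no longer below the NAC33 share. At that q-value CARPO had 5153 events and NAC33 had 1832, fewer because the threshold is stricter, so CARPO had 2.81 times as many in place of 1.46 times. The partner share of the strongest NAC33 class exceeded that of the weakest by 22.2 percentage points, by 27.1 with ranking by p-value and by 18.1 at 25 bp. For CARPO the excess was 18.8 points and 14.3 at 25 bp. The rank correlation of partners fell from 0.34 to 0.25 with ranking by p-value and to 0.19 without pairs that include one of the strongest 1000 events of either list. Recurrence in the leaf list of the same factor labelled 500 was 41.5% and 26.4% at 25 bp for NAC33 events with and without a partner, and 35.5% at 250 bp for those without. For CARPO it was 86.2% and 59.6% at 25 bp, and 76.6% at 250 bp for those without. In the 3 other lists that are not of the partner factor, events with a partner recurred more often than events without under these distances and with the numbered chromosomes only. Where the construction of an alternative does not show it, the cause of a shift was not tested.

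Each condition has 1 list, so no replicate was left out. No paired analysis was possible because the lists compared share fewer than 2 replicate numbers. The depth of the libraries is unknown, and list lengths cannot be corrected for it.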

Other observations

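Along the numbered chromosomes the density of both factors rose and fell together at a coarse scale. Over 468 windows of 1 Mb that held an event of any list, Spearman's rho between the numbers of CARPO and NAC33 events was 0.76, and 0.60 when events with a partner were left out. Over 4359 windows of 0.1 Mb the values were 0.32 and 0.14. Both counts come from the same stretches of DNA, and the finer windows hold few events, so these are descriptions. NAC33 events outnumbered CARPO events in 72 of the 468 windows (15.4%). The widest excess of NAC33 was on chromosome 13 at 27000000 to 27999999, with 21 NAC33 and 13 CARPO events. The widest excesses of CARPO were 44 against 14 events on chromosome 1 at 10000000 to 10999999 and 49 against 19 on chromosome 2 at 1000000 to 1999999.

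CARPO events stood close to another event of their own list more often than NAC33 events did. Of the CARPO events, 901 (9.83%) had another CARPO event within 200 bp, and of the NAC33 events 156 (2.48%) had another NAC33 event within 200 bp, in a list with fewer events. Of these 901 CARPO events, 21.2% had a NAC33 partner, against 12.9% of the CARPO events that stood alone. Of the 156 NAC33 events, 37.2% had a CARPO partner, against 18.8% of those that stood alone. The close events were also stronger in both lists. Their median rank was 36.6% of the list against 52.5% for CARPO, and 31.1% against 51.8% for NAC33. There were 63 NAC33 events that were nearest to more than 1 CARPO event within 100 bp, and 16 CARPO events that were nearest to more than 1 NAC33 event. The partner shares of close events therefore count some partners more than once, and they were not matched for strength.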
